A study of Rattus norvegicus with 12 samples.

Results

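The genes described here are 10 antioxidant and detoxification targets of the transcription factor NRF2, namely Srxn1, Akr1b8, Hmox1, Gclc, Gclm, Nqo1, Osgin1, Sqstm1, Me1 and Abcc1. They were taken as all probe sets whose only annotated gene symbol was one of these names, which gave 15 probe sets of 10 genes among 15866 probe sets and 10411 genes on the array. They were chosen by symbol with no threshold on a value, but the list was drawn up with the differences between depolarized and control cultures at 30 min and 2 h already known. Their treatment differences, and the counts of members past the threshold in the comparisons that involve treated cultures, are therefore a description and no test of the members. The comparison of the untreated groups with each other is given with its p-values. The same control arrays enter the treatment differences, so these p-values are not independent of how the list was drawn up.

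NRF2, encoded by Nfe2l2, is held at a low level in resting cells by KEAP1, an adaptor that passes it to a CUL3 ubiquitin ligase for degradation. Oxidants and electrophiles disable KEAP1, after which NRF2 accumulates, pairs with a small MAF protein (MAFF, MAFG or MAFK) and binds antioxidant response elements near its target genes. The targets make and recycle glutathione and thioredoxin, degrade heme, reduce quinones and aldehydes, supply NADPH and export conjugates. In the brain the pathway is best known from astrocytes, which supply neurons with glutathione precursors, and dopaminergic neurons of the midbrain are known for their oxidative load.

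Expression was measured on an Affymetrix rat array in 12 samples of ventral midbrain cultures from CD1 rat embryos at embryonic day 12. All cultures were serum-free. For the first 6 days the medium held bFGF, a fibroblast growth factor, at 20 ng/ml, together with 50 ng/ml of the Sonic hedgehog protein. Both were absent for the next 3 days, so every group, controls included, had been expanded with these factors. On day 9 in vitro, 2 groups were depolarized with 56 mM KCl for 2 h and 2 groups stayed in control medium for the same time. One group of each kind was collected 30 min after the end of that treatment and the other 2 h after it, with 3 arrays in each of the 4 groups. Litters of 4 rats were combined and divided into 3 lots handled apart, and each array received the joined RNA of 2 sister dishes, so the spread between arrays is one between pooled cultures and not between animals. Replicates are numbered 1 to 3 at 30 min and 4 to 6 at 2 h, and the labels leave it unsaid whether cultures of both collection times came from 1 preparation. All values are log2 expression summaries, on which a difference of 1 is a doubling.

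A short stretch before the start site of each gene was searched for the letters that NRF2 is known to bind. Of the 10 genes, 9 were matched to a RefSeq promoter (assembly GRCr8), and Hmox1 was not matched. In the 250 bases before the start site, the antioxidant response element core TGACNNNGC, searched on both strands, was found in 2 of 9 members (Gclm and Me1), against 10.2% of 27457 rat promoters. The AP-1 motif TGACTCA, which binds FOS and JUN proteins and whose letters can form part of an antioxidant response element, was found in 2 of 9 (Srxn1 and Me1), against 3.98%. In Me1 both matches were the same stretch, TGACTCAGC, which 0.375% of promoters held. The 3 sequences with a match are shown because they place these letters relative to the start site. They run 5′ to 3′ on the gene's strand, with the match in capitals.
Srxn1, chr3:161064562-161064811, plus strand: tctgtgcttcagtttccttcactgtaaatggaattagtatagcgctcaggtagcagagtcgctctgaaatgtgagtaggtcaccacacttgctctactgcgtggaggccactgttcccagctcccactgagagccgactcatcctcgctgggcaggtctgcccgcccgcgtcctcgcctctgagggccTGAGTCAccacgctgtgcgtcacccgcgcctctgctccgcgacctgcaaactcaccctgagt
Gclm, chr2:213031885-213032134, plus strand: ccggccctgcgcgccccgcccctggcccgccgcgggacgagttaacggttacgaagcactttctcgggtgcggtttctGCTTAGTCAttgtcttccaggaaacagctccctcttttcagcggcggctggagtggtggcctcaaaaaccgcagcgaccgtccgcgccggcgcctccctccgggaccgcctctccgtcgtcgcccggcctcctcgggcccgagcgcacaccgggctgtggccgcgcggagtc
Me1, chr8:96540245-96540494, minus strand: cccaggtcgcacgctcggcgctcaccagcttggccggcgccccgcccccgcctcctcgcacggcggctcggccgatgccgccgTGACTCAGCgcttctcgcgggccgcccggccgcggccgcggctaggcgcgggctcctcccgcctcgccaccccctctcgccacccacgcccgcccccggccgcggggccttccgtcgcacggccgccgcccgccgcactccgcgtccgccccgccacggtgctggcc
Counted back from the base next to the start site, the Srxn1 match lay at bases 62 to 56, the Gclm match at 172 to 164 and the Me1 match at 167 to 159. The Srxn1 and Gclm matches read as the motif on the opposite strand. A match describes letters and not an occupied site, and the windows of Akr1b8, Gclc, Nqo1, Osgin1, Sqstm1 and Abcc1 held neither motif. Bases further upstream were not searched, so this does not show that these genes lack the element.

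At 2 h after depolarization, 9 of the 10 genes were higher than in their controls, Srxn1 by 7.73-fold, Akr1b8 by 4.89-fold and Hmox1 by 3.69-fold, and Abcc1 was lower. At 30 min the picture was partial, with Srxn1 and Hmox1 already raised, Osgin1, Me1 and Sqstm1 raised less, Nqo1 lower, and Akr1b8, Gclc, Gclm and Abcc1 not past the threshold. Gclc, Me1 and Sqstm1 have more than 1 probe set, and in counts of genes each stands at its brightest one, judged by the mean of the 12 arrays. Of all 10411 genes counted so, 9.59% were called higher and 18.4% lower at 2 h, and 10.9% and 15.4% at 30 min. In such bulk cultures fewer cells of a type and less RNA per cell cannot be told apart. The plot of levels shows these 10 probe sets in every array.

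**Figure D1:**
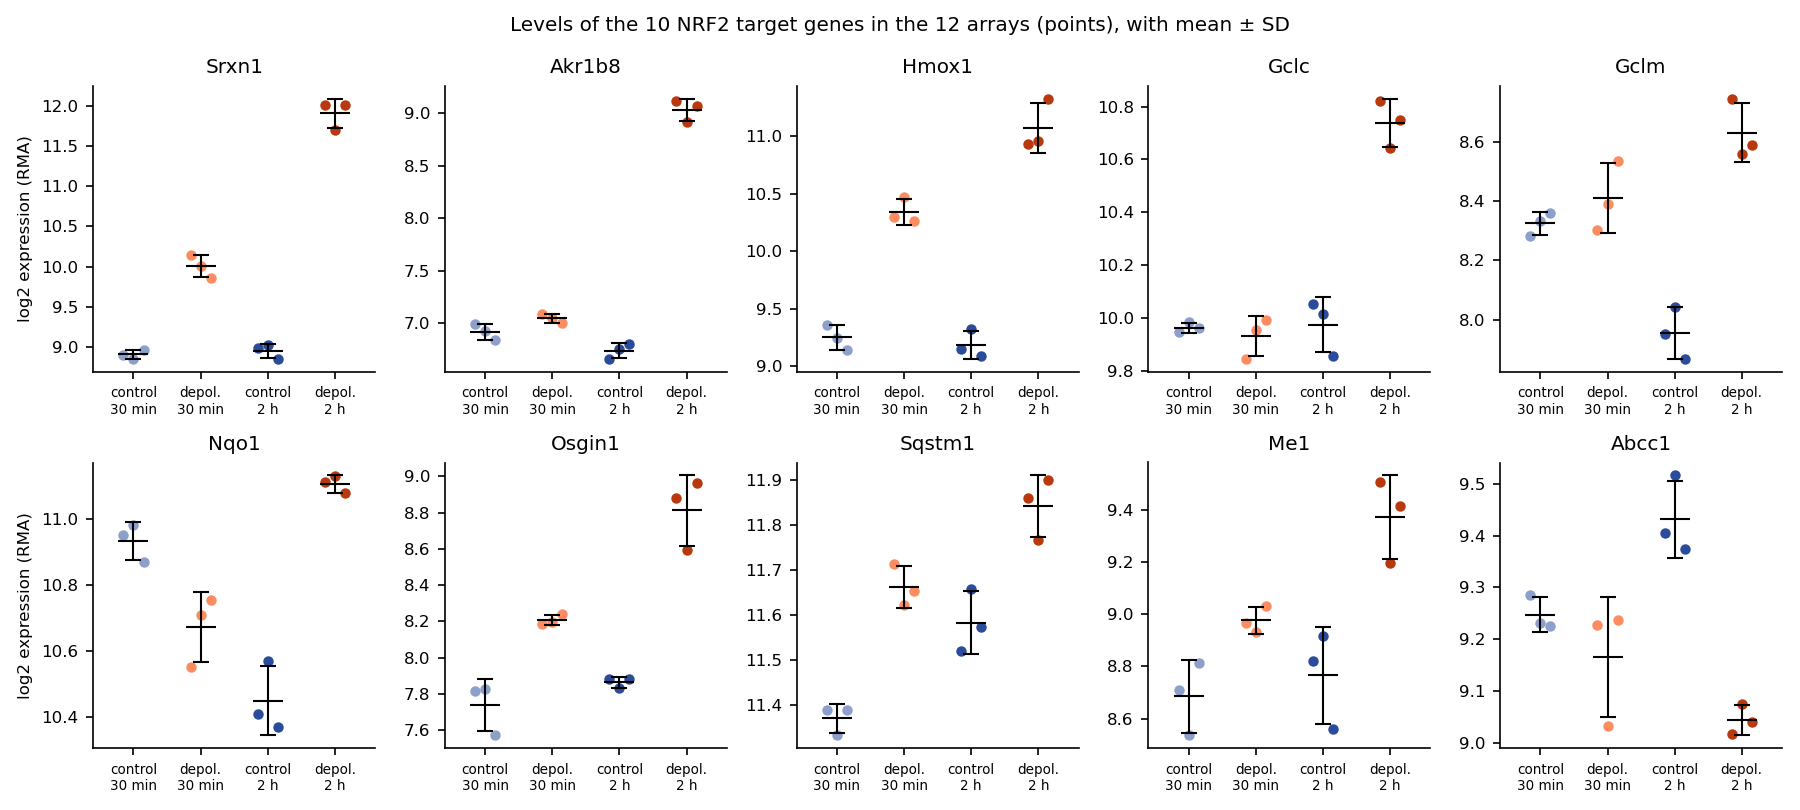
Levels of the 10 genes (log2 expression, 1 panel per gene with its own axis) in the 4 groups, each point an array and the bars the mean and SD of 3 arrays. The 3 depolarized arrays at 2 h lie above the other 9 arrays in 9 of the 10 genes, and Abcc1 is the exception. Counted by probe set this holds for 11 of the 15 of these genes, beside 3.51% of all probe sets.

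Srxn1 encodes sulfiredoxin, which repairs overoxidized peroxiredoxins with ATP. Its level was 8.90, 8.86 and 8.97 in controls of the 30 min collection and 10.15, 10.01 and 9.86 in the depolarized cultures of that time, a difference of 1.10 (SE 0.09). At 2 h it was 8.98, 9.02 and 8.85 in controls and 12.01, 11.70 and 12.004 after depolarization, a difference of 2.95 (SE 0.09). The groups did not overlap at either time, and the difference ranked 5 from the top of all 15866 probe sets at 2 h. The controls of the 2 times differed by 0.04 (SE 0.09, adjusted p = 0.729, limma).

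Akr1b8 encodes an aldo-keto reductase that clears reactive aldehydes, and it followed another course. At 30 min it stood at 6.99, 6.92 and 6.84 in controls and at 7.09, 7.05 and 7.0037 after depolarization, which is a difference of 0.13 (SE 0.07) that did not pass the threshold although the groups did not overlap. At 2 h the controls were at 6.66, 6.76 and 6.80 and the depolarized arrays at 9.11, 8.91 and 9.06, a difference of 2.29 (SE 0.07). Nearly all of its response thus lay between the collection times, and the 2 h difference exceeded the earlier one by 2.16 (SE 0.10).

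Hmox1 encodes heme oxygenase 1, which breaks heme into biliverdin, iron and carbon monoxide. Its controls were at 9.36, 9.25 and 9.14 and its depolarized arrays at 10.29, 10.47 and 10.26 at 30 min, a difference of 1.09 (SE 0.10). At 2 h they were at 9.15, 9.32 and 9.09 and at 10.93, 10.96 and 11.32, a difference of 1.89 (SE 0.10). Hmox1 and Srxn1 differed from their controls by nearly the same amount at 30 min, and by 2 h Srxn1 had moved further. The increase of the difference between the times was 0.795 for Hmox1 and 1.85 for Srxn1.

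Osgin1, a growth inhibitor induced by oxidative stress, had the third largest difference at 30 min, after Srxn1 and Hmox1. It was at 7.82, 7.83 and 7.57 in controls and at 8.19, 8.20 and 8.24 after depolarization at 30 min, a difference of 0.47 (SE 0.09). At 2 h it was at 7.88, 7.83 and 7.88 in controls and 8.88, 8.59 and 8.96 after depolarization, a difference of 0.95 (SE 0.09). All 4 groups of Osgin1 were separate from each other, in the order 30 min controls, 2 h controls, depolarized at 30 min and depolarized at 2 h. The 2 control groups differed by 0.13 (SE 0.09), which was not significant (adjusted p = 0.282, limma). The growth of its response from 30 min to 2 h (0.48) did not pass the threshold without replicate 2 of the 30 min controls.

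Gclc and Gclm encode the catalytic and the modifier subunit of glutamate-cysteine ligase, the rate-limiting enzyme of glutathione synthesis. Gclc at its brighter probe set was at 9.95, 9.98 and 9.96 in controls and 9.84, 9.95 and 9.99 after depolarization at 30 min, with overlapping groups (difference -0.03, SE 0.07). At 2 h it was at 10.05, 10.02 and 9.86 in controls and at 10.82, 10.64 and 10.75 after depolarization, a difference of 0.76 (SE 0.07) or 1.70-fold. The catalytic subunit passed the threshold at the later time and not at the earlier one. Its second probe set gave 9.36, 9.40 and 9.57 against 9.29, 9.22 and 9.34 at 30 min, a difference of -0.16 (SE 0.09) below the threshold. At 2 h that probe set gave 9.17, 9.19 and 9.25 against 10.28, 9.86 and 10.15, a difference of 0.89 (SE 0.09).

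Gclm, like Gclc, was above its controls at 2 h, but over controls that were themselves lower than at 30 min. It was at 8.28, 8.33 and 8.36 in controls and 8.30, 8.39 and 8.54 after depolarization at 30 min, with overlapping groups (difference 0.08, SE 0.07). At 2 h the controls were at 7.95, 8.04 and 7.87 and the depolarized arrays at 8.74, 8.56 and 8.59, a difference of 0.68 (SE 0.07). The 2 h controls lay below the 30 min controls by 0.37 log2 units (-0.37, SE 0.07, adjusted p = 0.0011, limma). Within the depolarized cultures Gclm was higher at 2 h than at 30 min by 0.22, and Gclc by 0.81 at both of its probe sets. Measured from the 30 min controls, the depolarized arrays at 2 h were higher by 0.30, with no overlap.

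Nqo1, the quinone reductase that is a standard readout of NRF2 activity, was likewise lower in the 2 h controls than in the 30 min controls. Its level was 10.95, 10.98 and 10.87 in the 30 min controls, and 10.55, 10.71 and 10.75 in the depolarized arrays of that time, all lower (difference -0.26, SE 0.07). At 2 h it was at 10.41, 10.57 and 10.37 in controls and 11.11, 11.13 and 11.08 after depolarization, a difference of 0.65 (SE 0.07). Nqo1 was thus below its controls at the first time and above them at the second. The controls differed by -0.48 between the times (SE 0.07, adjusted p = 6.73e-05, limma). The depolarized arrays at 2 h exceeded the 30 min controls by only 0.17. Whether both sets came from 1 preparation is not known, so collection time and preparation cannot be told apart here. The lower value at 30 min did not pass the threshold without replicate 2 of the controls or replicate 1 of the depolarized cultures.

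Me1 encodes cytosolic malic enzyme, a source of NADPH for both reductive repair and lipid synthesis. At its brighter probe set it was at 8.71, 8.54 and 8.81 in controls and 8.97, 8.93 and 9.03 after depolarization at 30 min, a difference of 0.29 (SE 0.10). At 2 h it was at 8.82, 8.92 and 8.56 and at 9.51, 9.19 and 9.41, a difference of 0.61 (SE 0.10). The second probe set gave 0.11 (SE 0.07) at 30 min, which did not pass the threshold, and 0.52 (SE 0.07) at 2 h. The 30 min difference of the brighter probe set passed narrowly, and it no longer passed when any of 7 of the 12 arrays was left out (replicates 1 and 2 of the 30 min controls, each of the depolarized arrays at 30 min, replicate 4 of the 2 h controls or replicate 6 of the depolarized cultures at 2 h).

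Sqstm1 encodes p62, an autophagy receptor that also binds KEAP1 and takes it away from NRF2. Its brightest probe set was at 11.39, 11.33 and 11.39 in controls and 11.71, 11.62 and 11.65 after depolarization at 30 min, and at 11.52, 11.66 and 11.57 against 11.86, 11.77 and 11.90 at 2 h. The differences were 0.29 (SE 0.06) and 0.26 (SE 0.06), so that Sqstm1 was raised at both times, with a response difference of -0.03 (SE 0.09). Its 2 h controls were higher than its 30 min controls by 0.21 (SE 0.06, adjusted p = 0.014, limma), a call lost without replicate 2 of the 30 min controls (adjusted p = 0.0592) or replicate 5 of the 2 h controls (adjusted p = 0.0655). The other 3 probe sets of Sqstm1 passed at neither time, with differences of 0.23, 0.09 and 0.06 at 30 min and 0.19, 0.05 and -0.08 at 2 h. The brightest of these 3 did pass at 30 min with median centring, quantile normalization, a loess correction or array weights, or without replicate 1 of the depolarized cultures, and at 2 h with quantile normalization or the loess correction. The gene's 4 probe sets therefore did not give 1 answer.

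Abcc1, the gene of the multidrug resistance protein MRP1 that exports glutathione conjugates, was the member that ran the other way. It was at 9.29, 9.23 and 9.23 in controls and 9.23, 9.03 and 9.24 after depolarization at 30 min, with overlap (difference -0.08, SE 0.07). At 2 h the controls were at 9.40, 9.52 and 9.37 and the depolarized arrays at 9.02, 9.07 and 9.04, a difference of -0.39 (SE 0.07). All 3 depolarized arrays at 2 h were below all 6 controls. The control level was higher at 2 h than at 30 min by 0.18 (SE 0.07, adjusted p = 0.0446, limma), which did not pass under 4 other fits or when any of 7 arrays was dropped (adjusted p up to 0.166, without replicate 5 of the 2 h controls).

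Counted over all 15 probe sets, 5 were higher and 1 lower at an adjusted p under 0.05 at 30 min, where 10.8% of all probe sets were called higher and 13.1% lower (24.0% either way). At 2 h, 11 were higher and 1 lower, where 9.51% of all probe sets were called higher and 15.7% lower (25.2% either way). Counted instead by whether the 3 depolarized and 3 control arrays overlapped, 6 probe sets were higher and 2 lower without overlap at 30 min (17.9% and 18.9% of all probe sets), and 11 and 1 at 2 h (15.4% and 22.1%). These counts describe genes proposed for this pattern and carry no weight of their own. Over the 10 genes the median difference was 0.21 at 30 min and 0.72 at 2 h, beside 0.01 and -0.02 over all 10411 genes. With each array centred on its median, the share of all calls that were higher moved from 45.2% to 58.9% at 30 min and from 37.7% to 51.4% at 2 h, while the members kept 11 higher and 1 lower at 2 h.

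**Figure D2:**
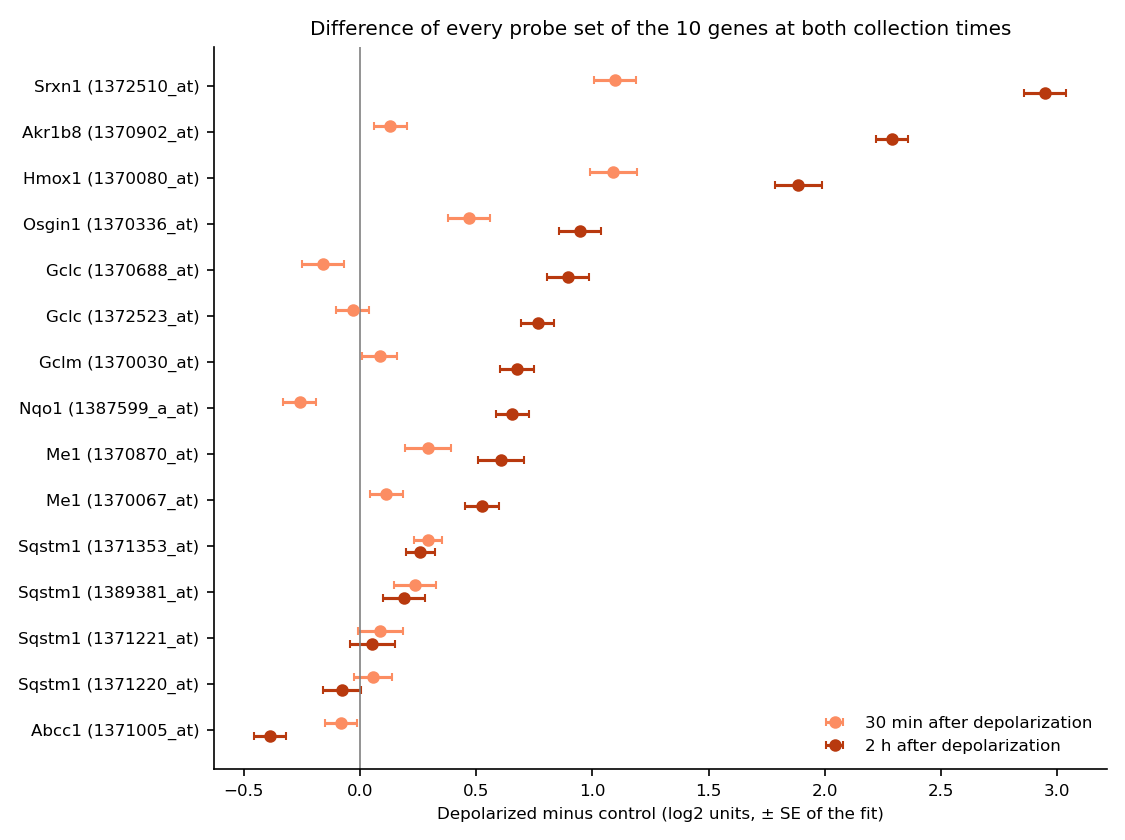
Difference between depolarized and control arrays (log2 units, bars are the SE of the fit) for each of the 15 probe sets at 30 min and at 2 h. Srxn1, Akr1b8 and Hmox1 reach 1.89 to 2.95 at 2 h, the other raised genes lie between 0.26 and 0.95, and Abcc1 lies at -0.39.

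The members differed in how far they had moved by 30 min. In 5 of the 10 genes (Srxn1, Hmox1, Osgin1, Me1 and Akr1b8) every depolarized array at 30 min was above all 6 controls, although in Akr1b8 that difference was small and did not pass the threshold. Counted by probe set this held for 5 of 15, beside 12.1% of all probe sets. In 9 of the 10 genes every depolarized array at 2 h was above all other 9 arrays. Counted by probe set this held for 11 of 15, beside 3.51% of all probe sets. The response was more positive at 2 h in 9 of 15 probe sets and more negative in 1, counted by the threshold on the difference between the responses, beside 6.16% and 6.79% of all probe sets. The more positive ones were Srxn1, Akr1b8, Hmox1, Osgin1, both of Gclc, Gclm, Nqo1 and the dimmer Me1 probe set. Within the depolarized cultures, 11 probe sets were higher at 2 h than at 30 min and 0 were lower, beside 19.2% and 21.8% of all probe sets (41.0% either way). Abcc1 was the one with a negative response difference, and it did not pass when any of 10 arrays was dropped. Both treatment differences enter this contrast, and each used the controls of its own time.

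Among the depolarized arrays at 2 h, replicate 5 was the lowest in 7 of the 10 genes. The median of the 10 genes above their own control mean was 0.82, 0.67 and 0.71 in replicates 4, 5 and 6. Leaving replicate 5 out did not change the count of 11 probe sets higher and 1 lower at 2 h.

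In the untreated cultures, 2 of the 15 probe sets were higher at 2 h than at 30 min (Sqstm1 and Abcc1) and 2 were lower (Gclm and Nqo1). Their tests are given above. The control sets of the 2 times may come from separate preparations. In every comparison between the times, collection time and preparation therefore cannot be told apart. Over all probe sets 18.1% were called higher and 17.2% lower in this comparison, so the 4 of 15 called here stand beside 35.3% of all probe sets. By overlap, 3 probe sets were higher and 4 lower, beside 22.1% and 27.5%. Srxn1, Hmox1, Gclc at its brighter probe set and Me1 had control differences from -0.06 to 0.08, none significant. Akr1b8 (-0.18, adjusted p = 0.0568) and the dimmer Gclc probe set (-0.24, adjusted p = 0.0515) were close to the threshold and passed it in some other fits.

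Several genes of the proteins that control NRF2 changed at 30 min. They were listed with the rest of the pathway, of which 45 of 62 genes were measured by a probe set with 1 symbol. The pathway list too was drawn up with earlier results of these data known. Its counts and p-values are therefore not an independent test. The small MAF genes Mafk and Mafg rose by 1.10 (SE 0.09, adjusted p = 3.78e-07) and 0.87 (SE 0.08, adjusted p = 1.11e-06, limma). The ligase scaffold gene Cul3 rose by 0.73 (SE 0.07, adjusted p = 1.12e-06, limma) and the adaptor gene Keap1 fell by 0.62 (SE 0.09, adjusted p = 4.31e-05, limma). Nfe2l2 itself differed by 0.14 (SE 0.10, adjusted p = 0.415, limma) at that time. Of the 7 regulators measured, 3 were higher and 1 lower at 30 min, beside 10.9% and 15.4% of all genes at their brightest probe set. Nfe2l1 and Rbx1 passed at neither time.

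**Figure D3:**
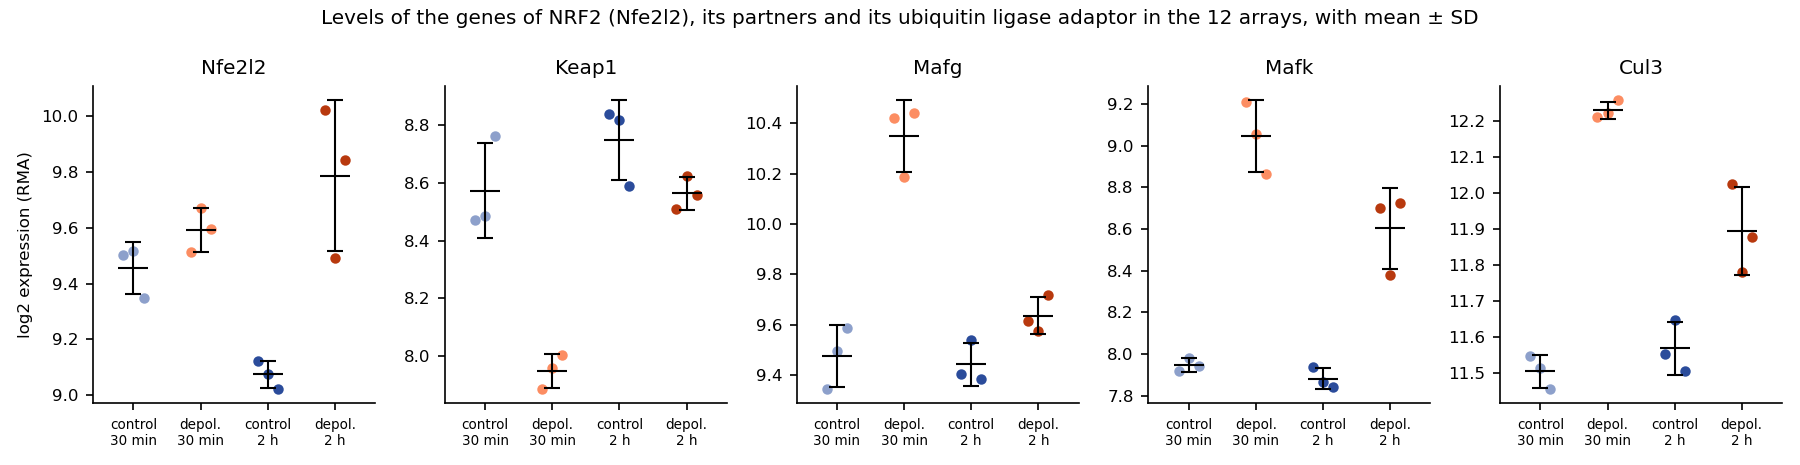
Levels (log2 expression) of the genes of NRF2 (Nfe2l2), KEAP1, MAFG, MAFK and CUL3 in the 4 groups, each point an array with the mean and SD of 3 arrays. Mafg, Mafk and Cul3 are highest and Keap1 is lowest in the depolarized arrays at 30 min, while Nfe2l2 has its highest mean in those at 2 h.

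Array by array, Keap1 stood at 8.47, 8.49 and 8.76 without and at 7.89, 7.96 and 8.0022 with depolarization at 30 min, and at 8.84, 8.82 and 8.59 against 8.51, 8.63 and 8.56 at 2 h. The fall was clear of overlap at the first time and was -0.18 at the second (adjusted p = 0.137, limma), a change in response of 0.44 (adjusted p = 0.0229, limma). A second Keap1 probe set gave -0.74 (adjusted p = 0.000285, limma) and -0.32 (adjusted p = 0.0681, limma). Without replicate 6 of the 2 h controls the 2 h difference of the first probe set passed (adjusted p = 0.0371, limma).

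Mafg was at 9.35, 9.50 and 9.59 against 10.42, 10.18 and 10.44 at 30 min, and at 9.41, 9.54 and 9.38 against 9.61, 9.58 and 9.72 at 2 h. Its response shrank by 0.68 log2 units (-0.68, adjusted p = 0.00103, limma), and the remaining 0.19 at 2 h did not pass (adjusted p = 0.104, limma), although it did pass with the arrays median-centred, quantile-normalized or loess-corrected (adjusted p = 0.0377, 0.0212 and 0.0204). The second Mafg probe set rose by 1.11 and by 0.37 (adjusted p = 5.45e-07 and 0.0108, limma). Mafk, at 7.92, 7.98 and 7.94 against 9.21, 9.06 and 8.87 and then 7.94, 7.87 and 7.84 against 8.70, 8.38 and 8.73, kept a rise of 0.72 at 2 h (adjusted p = 5.01e-05, limma). Both small MAF genes were therefore highest in the depolarized cultures collected first.

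Nfe2l2 passed the threshold against its controls at 2 h and not at 30 min. Its level was 9.50, 9.51 and 9.35 in the earlier controls, 9.51, 9.67 and 9.59 in the depolarized arrays of that time, 9.12, 9.08 and 9.02 in the 2 h controls and 10.02, 9.49 and 9.84 in the depolarized arrays at 2 h. The 2 h difference was 0.71 (SE 0.10, adjusted p = 0.000124, limma), and the response was larger than at 30 min by 0.57 (adjusted p = 0.0144, limma). Its 2 h controls were lower than its 30 min controls by 0.38 (SE 0.10, adjusted p = 0.00849, limma). Within the depolarized cultures its mean was 9.59 at 30 min and 9.79 at 2 h, with overlapping arrays. Part of the larger 2 h response thus lay in the lower 2 h controls. Replicate 5 of the depolarized cultures at 2 h lay within the range of the 30 min controls. Cul3 rose at both times, by 0.73 and by 0.33 (adjusted p = 0.00238, limma), the second rise being smaller by 0.40 (-0.40, adjusted p = 0.0119, limma). A dim second probe set of Cul3 did not pass at either time (0.11 and 0.17).

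No listed target outside the 10 genes passed at 30 min in the fit of all arrays, and some did at 2 h. Fech and Gstp1 did pass as lower at 30 min in other fits (adjusted p = 0.0372 and 0.0378 with quantile normalization, and 0.0119 for Fech with array weights, limma). Of the 45 pathway genes, 3 were higher and 1 was lower at 30 min, all of them regulators, beside 10.9% and 15.4% of all genes at their brightest probe set. At 2 h 11 were higher and 1 was lower (24.4% higher), beside 9.59% and 18.4% of all genes. The median over the 45 genes was 0.0046 at 30 min and 0.05 at 2 h. The plot of the pathway shows the groups side by side.

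**Figure D4:**
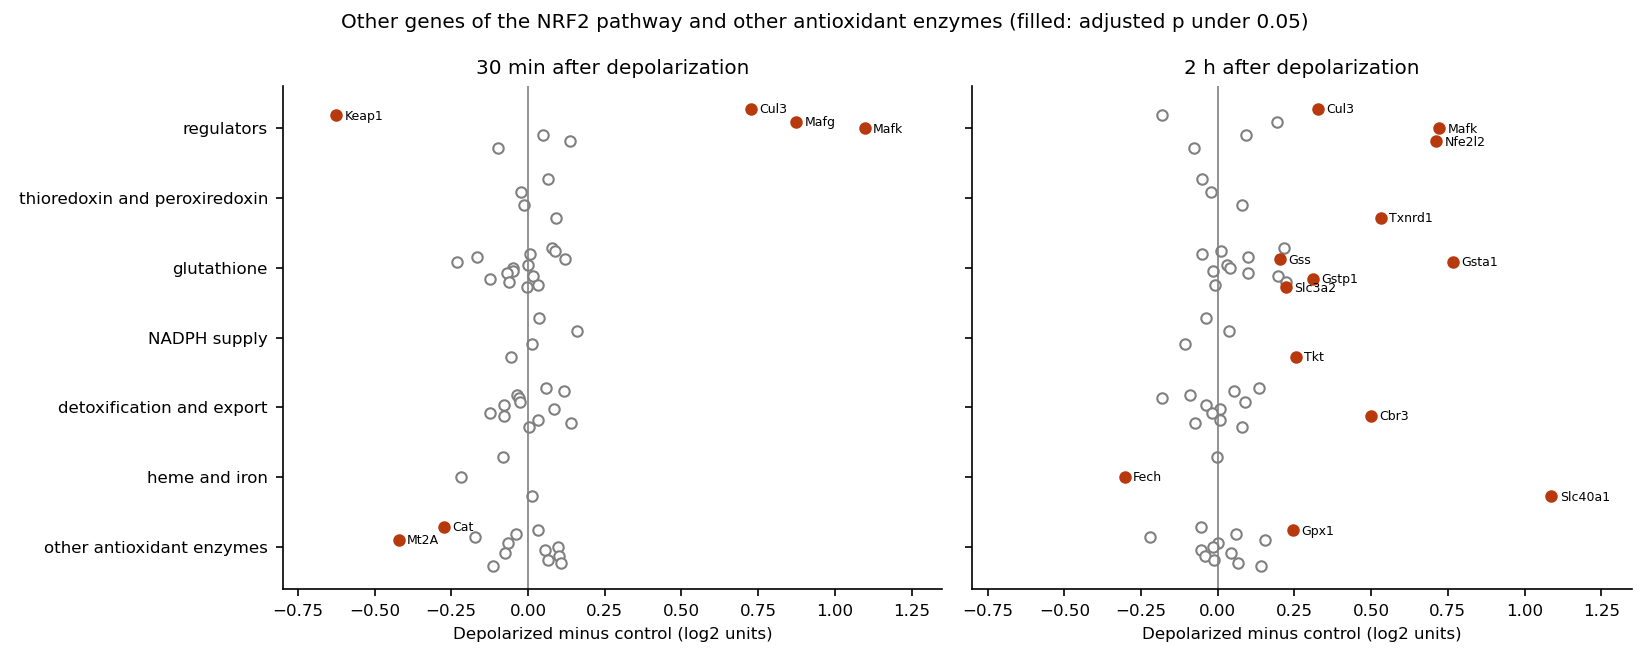
Difference between depolarized and control arrays (log2 units) for the 45 other pathway genes in 6 groups and for 13 other antioxidant enzymes and metallothioneins, at 30 min (left) and at 2 h (right), with filled and named points at an adjusted p under 0.05. At 30 min the named pathway genes are all regulators, and at 2 h named genes stand in each group, with Slc40a1 at 1.09 the furthest from 0.

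Slc40a1, which encodes ferroportin, the exporter of iron such as heme oxygenase frees, had the largest 2 h difference of the pathway genes. It was at 9.30, 9.13 and 9.21 in the 2 h controls and at 10.14, 10.35 and 10.41 after depolarization, a rise of 1.09 (SE 0.10, adjusted p = 1.55e-06, limma). At 30 min its groups overlapped, at 9.50, 9.14 and 9.40 in controls against 9.35, 9.47 and 9.26. A second probe set rose by 0.85 and another, dim one by 0.29 at 2 h (adjusted p = 7.06e-06 and 0.00789, limma). Fech, the last enzyme of heme synthesis, fell by 0.30 at 2 h (adjusted p = 0.0131, limma), which was lost without replicate 4 of the controls (adjusted p = 0.0792) or replicate 5 of the depolarized cultures (adjusted p = 0.0518).

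Among the thioredoxin genes 1 of 4 rose at 2 h, beside 9.59% of all genes. Txnrd1, the thioredoxin reductase that works in the same chain as sulfiredoxin, was at 11.16, 11.24 and 11.11 in the 2 h controls and at 11.71, 11.56 and 11.82 after depolarization, a rise of 0.53 (SE 0.07, adjusted p = 5.15e-05, limma). Its second probe set rose by 0.72 (adjusted p = 2.25e-05, limma). At 30 min Txnrd1 differed by 0.09 (adjusted p = 0.433, limma).

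Of 15 glutathione genes 4 were higher at 2 h (26.7%, beside 9.59% of all genes) and none passed at 30 min. The transferase genes Gsta1 and Gstp1 rose by 0.77 (SE 0.14, adjusted p = 0.00083) and 0.31 (SE 0.07, adjusted p = 0.00272, limma). Gss, the second enzyme of glutathione synthesis, rose by 0.20 (adjusted p = 0.045, limma), and Slc3a2, the heavy chain of the cystine carrier, by 0.22 (adjusted p = 0.0351, limma). Gsr, which regenerates reduced glutathione, differed by -0.17 at 30 min and 0.10 at 2 h (adjusted p = 0.25 and 0.51, limma). The rise of Gsta1 stood over 2 h controls that were lower than those at 30 min. Its level was 8.31, 8.51 and 8.39 in the earlier controls, 7.52, 7.71 and 7.02 in the later ones and 8.30, 8.07 and 8.18 after depolarization at 2 h. Gstp1 likewise was at 12.39, 12.42 and 12.35, then 12.06, 12.13 and 11.93, and 12.42, 12.27 and 12.36 after depolarization at 2 h. The depolarized arrays at 2 h lay below the 30 min controls in Gsta1 and overlapped them in Gstp1.

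In the group of detoxification and export genes 1 of 12 rose at 2 h (8.33%, below the 9.59% of all genes). It was the carbonyl reductase gene Cbr3 (0.50, SE 0.13, adjusted p = 0.00937, limma). Its controls were at 7.74, 8.26 and 8.15 at 30 min and at 6.73, 6.59 and 6.73 at 2 h, a difference of -1.37 (adjusted p = 6.99e-07, limma). The depolarized arrays at 2 h, at 7.30, 6.996 and 7.25, were below all 30 min controls. Of 4 NADPH genes Tkt, a transketolase gene, rose by 0.25 (adjusted p = 0.0282, limma), while its second probe set differed by 0.04 (adjusted p = 0.774, limma). The Tkt call was lost in the fit of the 2 h arrays alone and with the replicate number as a block (adjusted p = 0.0625 and 0.0633, limma). It was also lost without either of replicates 5 and 6 of the controls or 4 and 6 of the depolarized cultures (adjusted p from 0.0539 to 0.128, limma).

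Between the control groups 5 of the 45 pathway genes were higher at 2 h than at 30 min and 16 were lower, beside 19.1% and 17.5% of all genes at their brightest probe set. Among the 10 members, Gclm and Nqo1 were also lower in the 2 h controls. Of 13 genes of antioxidant enzymes and metallothioneins not classed here as NRF2 targets, 2 were lower with depolarization at 30 min, beside 15.4% of all genes at their brightest probe set. They were catalase (Cat, -0.28, adjusted p = 0.014) and the metallothionein gene Mt2A (-0.42, adjusted p = 0.00125, limma). At 2 h 1 was higher, glutathione peroxidase 1 (Gpx1, 0.24, adjusted p = 0.0297, limma), beside 9.59% of all genes. Both counts were near the shares of all genes.

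The cell type markers of the cultures differed mainly between the collection times. In the controls, 8 of 8 neuronal markers were higher at 2 h than at 30 min (median 1.04) and 6 of 7 oligodendrocyte lineage markers were lower. Of all genes at their brightest probe set, 19.1% were higher and 17.5% lower. Another Map2 probe set did not pass (0.14, adjusted p = 0.358, limma), nor did dim ones of Tubb3 and Gap43. Of the dopaminergic markers 6 of 8 were higher. Of the astrocyte markers 4 of 9 were lower and 1 higher, and of the progenitor markers 3 of 6 were lower and 1 higher. The mean of the neuronal list in controls went from a range of 10.27 to 10.51 to one of 11.38 to 11.43. At 2 h the neuronal mean was 11.39 to 11.45 after depolarization, and the astrocyte mean was 10.10 to 10.16 in controls and 10.11 to 10.25 after depolarization, so both overlapped. At 30 min the neuronal mean after depolarization, 10.52 to 10.62, lay above that of the controls. With depolarization, at the brightest probe sets, 1 of 8 neuronal and 0 of 9 astrocyte markers were higher at 30 min and none was lower. At 2 h 2 of 8 and 1 of 9 were higher (Nefl and Nefm, and Glul), and none was lower. Of all genes at their brightest probe set, 10.9% were higher and 15.4% lower at 30 min, and 9.59% and 18.4% at 2 h. A count of 1 in any of these short marker lists is near such shares. At other probe sets Rbfox3 was lower at 2 h (-0.34, adjusted p = 0.0358, limma) and Nefl did not pass (-0.06, adjusted p = 0.545, limma). The other Glul probe sets rose at 2 h by 0.64 and 0.52 (adjusted p = 2.83e-05 and 0.000287, limma). Of the dopaminergic list, 2 of 8 were higher at 30 min and 3 were higher and 1 lower at 2 h. Its mean was 7.60 to 7.72 in controls and 7.91 to 8.07 after depolarization at 30 min, without overlap, with 8 of 8 differences above 0 (median 0.31), and the groups overlapped at 2 h. Other probe sets of Slc6a3, Slc18a2 and Ddc did not pass at 30 min (0.05, 0.06 and 0.05, adjusted p = 0.81, 0.783 and 0.816, limma). Another of Nr4a2 rose by 0.67 at that time (adjusted p = 0.000768, limma). The progenitor mean was 10.72 to 10.82 in controls and 10.61 to 10.70 after depolarization at 2 h, also without overlap. There 1 of 6 was higher (Sox2) and 2 lower (Hes5 and Pax6), and 0 of 6 passed at 30 min. A second Hes5 probe set went the other way at 2 h (0.19, adjusted p = 0.0638, limma). A second, dim Sox2 probe set did not pass (0.19, adjusted p = 0.139, limma). Of the markers of endothelium, mural cells and fibroblasts, 1 of 9 was lower at 30 min (Pdgfrb), and 1 was higher (Flt1) and 1 lower (Pdgfrb) at 2 h, with overlapping means at both times. Other, dim Flt1 probe sets did not pass at 2 h (0.08 and 0.10, adjusted p = 0.417 and 0.233, limma). The mean of the oligodendrocyte lineage list was 8.46 to 8.53 and 7.85 to 7.96 in the controls at 30 min and 2 h, and 8.32 to 8.38 and 7.76 to 7.78 after depolarization. These ranges did not overlap between treated and control arrays at either time, with 1 of 7 markers lower at 30 min (Pdgfra) and 2 of 7 at 2 h (Cnp and Pdgfra). A second Cnp probe set was lower at 30 min (-0.29, adjusted p = 0.0403, limma) and did not pass at 2 h (-0.17, adjusted p = 0.242, limma). Microglial markers gave 1 of 9 higher at 30 min (Cd68) and 0 of 9 called at 2 h. Th, the enzyme that defines dopaminergic neurons, ranged from 7.39 to 8.22 over the 12 arrays, and without detection calls its presence in these cultures was not judged. The part of these marker differences in the differences of the 10 genes, the lower 2 h controls of Gclm and Nqo1 included, was not tested.

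Over the 12 arrays, the genes whose pattern came nearest to that of Srxn1 were Lgals3, Fosb, Homer1, Vgf and Nptx1. Likeness was the root-mean-square distance in log2 units after subtracting from each gene its mean in the 30 min controls, and it was 0.33, 0.41, 0.43, 0.52 and 0.56. For Hmox1 they were Klf10, Homer1, Tes, H1f2 and Bhlhe40, at 0.26, 0.31, 0.32, 0.32 and 0.34. Among the 10410 other genes, Hmox1 ranked 9 and Akr1b8 11 in likeness to Srxn1, Osgin1 ranked 42, and Nqo1 and Abcc1 ranked 4348 and 8119. The distance weighs the size of the response, so genes with small responses of the same timing rank low, and all genes share the same 12 arrays.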

How the data were processed

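The table holds log2 values, 1 per probe set and array, which the authors computed with RMA (named in the submitters' processing notes without a version) and deposited. That they are log2 was read from their range (4.41 to 14.58, with medians of 8.33 to 8.43 per array), and which arrays were normalized together is not given in the sources used here. Leaving out 57 array controls of 15923 probe sets kept 15866. By the platform annotation, which may be outdated, 12783 of these have 1 symbol, 312 have several and 2771 have none, and 0 symbols were updated. There are no detection calls, and the number of arrays limits the precision. Correlations between arrays were 0.9957 to 0.9979 within a group and 0.9717 to 0.9922 across groups.

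One mean per group was fitted with limma 3.58.1 (R 4.3.3) to all arrays together, leaving 8 residual degrees of freedom. Two-sided p-values were adjusted by Benjamini-Hochberg across the whole table, and a call is an adjusted p under 0.05. The fit was tested on simulated arrays. A listed gene is taken at its brightest probe set. The 10 genes and all lists were chosen with earlier results of these data known. Pathway genes named are Nfe2l2, Keap1, the small MAF genes, Cul3, Txnrd1 and Gsr where measured, and the 12 with the smallest p in either treatment comparison. Other names were chosen after their values were seen. Listed genes with no probe set of 1 symbol were not analysed here.

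Alternatives were median centring, quantile normalization, a loess correction, leaving out the dimmest 25% or 50%, only the groups compared, array weights, a trended and robust prior, the replicate number as a block, a threshold of 0.01, averaging the probe sets of a gene, and each array left out in turn. Promoter letters were searched with Python 3.11.15 in RefSeq windows of 250 bases before and 50 after each start, with the 250 as the main window and all 300 as the alternative.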

Additional observations from a re-analysis of the deposited data

Results flagged for a closer look

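These results are given because the treatment response differed between the collection times, by limma's test of the interaction, adjusted across the whole table. For the 10 genes, which were proposed with their responses known, the values are a description. The other pathway genes were also listed with earlier results known, so their p-values are not an independent test. The response at 2 h minus that at 30 min was 2.16 for Akr1b8, 1.85 for Srxn1, 0.91 for Nqo1, 0.795 for Hmox1, 0.59 for Gclm and 0.48 for Osgin1. It was 1.05 and 0.80 at the dimmer and the brighter Gclc probe set and 0.41 at the dimmer Me1 probe set. It was -0.31 for Abcc1.

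Among the other pathway genes the response was more positive at 2 h for Slc40a1 (1.07, adjusted p = 7.08e-05), Gsta1 (0.999, adjusted p = 0.0029), Cbr3 (0.58, adjusted p = 0.0478), Nfe2l2 (0.57, adjusted p = 0.0144), Txnrd1 (0.44, adjusted p = 0.00647), Keap1 (0.44, adjusted p = 0.0229) and Gstp1 (0.43, adjusted p = 0.00566), all by limma. For Keap1 this is a fall at 30 min that was smaller at 2 h. It was more negative for Mafg (-0.68, adjusted p = 0.00103) and Cul3 (-0.40, adjusted p = 0.0119, limma), which rose most at 30 min. Groups of 3 arrays were too small for a check of single outlying arrays.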

How the results depend on the processing

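Of the counts and medians for the 10 genes and the pathway, 477 recomputed values stayed near the reported ones, 57 moved and 1 changed sign. The 11 probe sets higher at 2 h were 11 or 12 and the 1 lower stayed 1 in every alternative, except that 8 were higher without the dimmest 50% (fewer probe sets tested). That filter also gave member medians of 0.29 at 30 min, 0.65 at 2 h, 0.795 for the response difference and 0.43 within depolarized cultures. It gave 8 pathway genes lower at 2 h than at 30 min in the control and in the depolarized comparison. At an adjusted p under 0.01 (limma), members lower numbered 0 at 30 min and 0 for the response difference, members higher between controls 0, and pathway genes lower at 2 h 0. Pathway genes with a response difference were then 4 higher and 1 lower, and 1 was higher between controls. Pathway genes lower at 30 min numbered 3 with quantile normalization and 2 with array weights. The 1 member with a negative response difference became 0 with array weights, the trended and robust prior and the replicate block. Between controls, 1 member was higher under median centring, quantile normalization, loess and the trended prior, 4 were lower under median centring and array weights, 1 pathway gene was higher with quantile normalization, and the member median of 0.0278 became -0.0427 there. Within depolarized cultures 1 member was lower under median centring. The cause was not tested.

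Signs turned for differences near 0 that did not pass in these settings. Between controls they were the dimmer Me1 probe set (-0.01 median-centred, -0.0339 quantile, -0.0162 to 0.0474 over arrays left out), Srxn1 (-0.0067, loess), the brighter Gclc (-0.0069 median-centred, -0.0855 quantile, -0.0431 loess, -0.0271 to 0.0707 over arrays left out) and dimmer Sqstm1 probe sets (0.0196 quantile and 0.0345 loess for the dimmest, -0.0046 quantile for the brightest of these). At 30 min they were the brighter Gclc (0.0168 median-centred, -0.0634 to 0.0106 over arrays left out) and, over arrays left out, the dimmest Sqstm1 probe set (-0.0043 to 0.095) and the one above it (-0.0061 to 0.1477), Cbr3 (-0.2318 to 0.0531) and Slc40a1 (-0.0886 to 0.0914). At 2 h the second dimmest Sqstm1 probe set ranged from -0.0422 to 0.142, and the response difference of the brightest Sqstm1 probe set from -0.0654 to 0.0043.

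Leaving out each array in turn gave 0 to 1 members lower and 1 to 2 pathway genes lower at 30 min, 0 to 2 pathway genes lower at 2 h, 0 to 1 members with a negative response difference, 0 to 2 members higher, 2 to 4 members lower and 2 to 7 pathway genes higher between controls, and within depolarized cultures 0 to 1 members lower and a member median of 0.4878 to 0.5986.

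Replicate numbers gave no sign of pairing, as same-numbered deviations correlated at -0.322, 0.229 and 0.051 at 30 min and 0.236, -0.107 and -0.241 at 2 h. With so few arrays this cannot establish that pairing was absent. With the number as a block, 1607 probe sets were higher and 1917 lower at 30 min (1720 and 2085 without it), and 1392 and 2225 at 2 h (1509 and 2492). With the replicate block members higher were 4 at 30 min and 11 at 2 h, and pathway genes higher 8 at 2 h. The brighter Me1 probe set at 30 min and Tkt at 2 h (adjusted p = 0.0633, limma) did not pass with the block.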

Other observations

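In the untreated cultures, several detoxification genes differed between the collection times. The following were chosen after their values were seen. The aldehyde dehydrogenase gene Aldh3a1 was lower at 2 h than at 30 min by 0.63 (-0.63, SE 0.11, adjusted p = 0.00034), the reductase gene Ptgr1 by 0.49 (-0.49, SE 0.09, adjusted p = 0.000355) and the epoxide hydrolase gene Ephx1 by 0.43 (-0.43, SE 0.08, adjusted p = 0.000482, limma). The isocitrate dehydrogenase gene Idh1 was higher by 0.42 (SE 0.07, adjusted p = 0.000156) and the carbonyl reductase gene Cbr1 by 0.25 (SE 0.07, adjusted p = 0.0132, limma). In the depolarized cultures the same differences were -0.59 for Aldh3a1, -0.42 for Ptgr1, -0.45 for Ephx1, 0.35 for Idh1 and 0.35 for Cbr1. Thioredoxin (Txn1) was lower at 2 h than at 30 min in both, with -0.61 in controls (adjusted p = 3.31e-05, limma) and -0.52 in depolarized cultures (adjusted p = 0.000127, limma).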
